A study of Gallus gallus with 23 samples.

Results

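The 50 mitosis and kinetochore genes described here were taken from the 11528 chicken genes that had a probe set with a single annotated symbol. They were chosen by name: symbols beginning with CENP, NCAPD, NCAPG, NCAPH, AURK, BUB or PLK, and a fixed list of mitotic regulators, motors and cytokinesis genes such as CDK1, TTK, NDC80, KIF11, TOP2A and ANLN. The probe set with the highest mean stood for each gene. CCNA2, CCNB2, CCNB3, SPC24 and RACGAP1 were named by the rule but are not analysed here, and AURKB was the sole Aurora kinase measured. A pair of the members carries a fitting name and another function: AURKAIP1 encodes a mitochondrial protein and CENPJ a centriole protein.

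At mitosis CDK1, bound to a cyclin, starts the division programme, condensins and topoisomerase II compact and untangle the chromosomes, and kinetochores built on centromeric chromatin bind spindle microtubules. A checkpoint made of BUB and MAD proteins and the kinase TTK holds back CDC20 until every chromosome is attached, after which the centralspindlin proteins and anillin divide the cell. Most of these genes are transcribed together late in the cell cycle, so that their RNA in a tissue follows the share of dividing cells, and in a growth plate division is concentrated in the proliferative chondrocytes that lie ahead of the hypertrophic zone.

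The arrays measured growth plate cartilage from the distal femur and the proximal tibiotarsus (TBT) of chicken embryos, to compare element, age and movement. Immobilised embryos received decamethonium bromide (DMB), which causes rigid paralysis, from embryonic day 10 (E10), and controls received the vehicle, Tyrode's solution. There were 3 arrays each of E15 immobilised femur, E15 immobilised TBT, E12 control femur, E13 control femur, E12 control TBT, E13 control TBT and E15 control TBT, and 2 of E15 control femur. Each array held the pooled cartilage of 4 embryos of unknown sex, and the eggs of all groups had been windowed. The methods state that ossified bone, marrow and red cells were left out. Of the 4 erythroid markers measured, the globin gene HBAD averaged 12.12 on the log2 scale. HBE, SLC4A1 and EPB42 averaged 5.68, 6.06 and 5.96, and the red cell content of the samples was not tested.

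Values are log2 intensities, on which a difference of 1 is a change by a factor of 2, and they are compared here between arrays for the same gene only. Array medians ran between 5.78 and 5.85. Correlations over the 11004 probe sets with a linear standard deviation above 10 were 0.9625 to 0.9829 within groups and 0.9233 to 0.9803 between them. The 9 cartilage markers measured, among them aggrecan and the collagens IX and XI, averaged 11.68 to 12.25 on the 23 arrays. E15 control TBT replicate 3 stood apart for the mitosis genes: 46 of the 50 were below their own mean there, and their median deviation from that mean was -0.25, while the median deviation of all genes on that array was 0.01. That array also had the highest mean log2 level of 6 hypertrophic markers (10.35, against 8.98 to 10.16 on the other arrays) and the lowest mean of 8 skeletal muscle markers in its group (6.07, against 6.84 and 7.13). Whether these move with the mitosis genes for a shared reason was not tested. For the TBT comparisons the counts, the list calls and the values of the main genes are given with and without it.

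**Figure D1:**
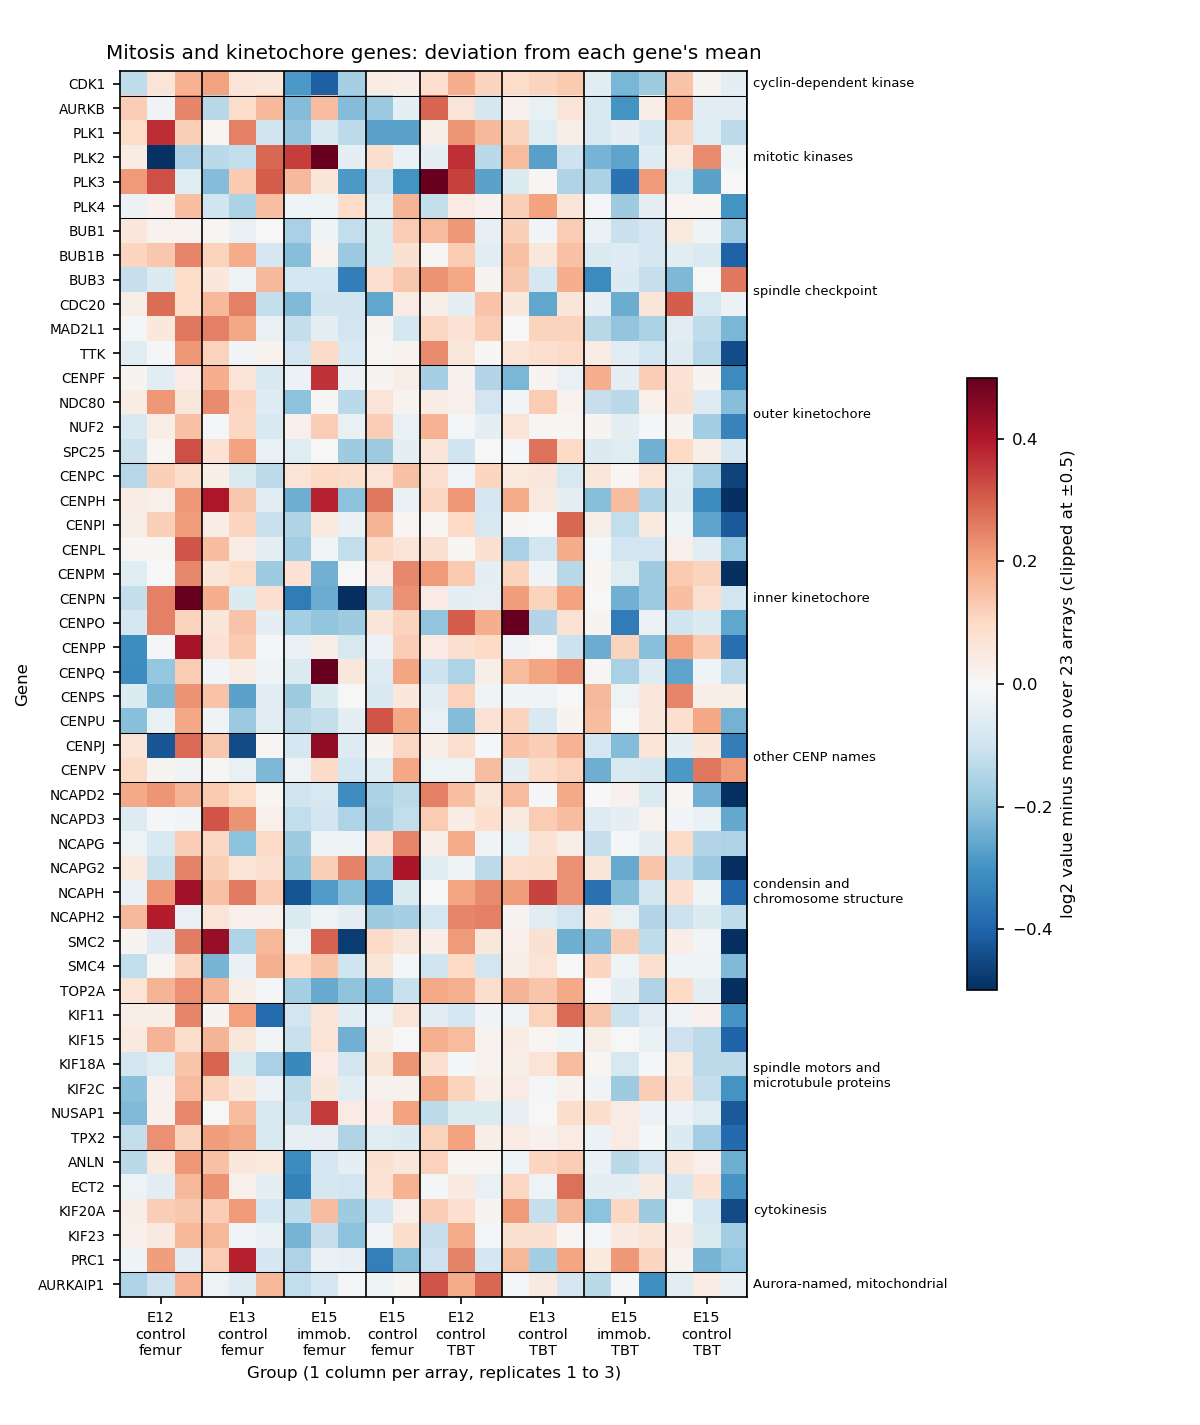
Deviation of each of the 50 genes from its own mean over 23 arrays (colour, log2 units, clipped at 0.5 in either direction), with genes grouped by role in rows and arrays grouped by element, age and treatment in columns. The last column, E15 control TBT replicate 3, is below the mean for 46 genes.

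Of the 50 genes, 46 lay above the array median on all 23 arrays. CENPO was below it on all 23, PLK3 was above it on 1 array, and CENPJ and CENPV were above it on 19 and 20. The 45 genes that passed the filter on low spread (a standard deviation above 10 on the linear scale, which CENPJ, CENPO, CENPV, NCAPH2 and PLK3 did not) varied together. The median Pearson correlation between them was 0.38 over the 23 arrays, 89.3% of gene pairs being above 0, and it was 0.40 over deviations from group means, where group differences play no part. Over the 7122 genes past the same filter the medians were 0.01 and 0.01. These are descriptions over arrays that share normalisation, and the median was 0.28 without E15 control TBT replicate 3 and 0.23 without that array and E12 control femur replicate 3, the arrays farthest from the median.

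BUB1B, a checkpoint protein, followed the rest most closely, with a Pearson correlation of 0.91 with the median of the other members over 23 arrays (Spearman 0.88), ahead of TTK at 0.84, MAD2L1 at 0.81 and TOP2A at 0.81. PLK2 (-0.20), CENPV (-0.15) and PLK3 (0.02) had the lowest correlations, and CENPV and PLK3 had not passed the filter on spread. BUB3 (0.15), SMC4 (0.18) and CENPS (0.20), which have roles in division, were also low. PLK2 and PLK3 are the polo kinases known from mammals chiefly for stress and neuronal roles rather than for the division programme.

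The median deviation of the 50 genes gives each array a level. In immobilised E15 femora this level was -0.13, -0.01 and -0.10, against 0.00 and 0.04 in E15 control femora. In immobilised E15 TBT it was -0.02, -0.06 and -0.05, against 0.01, -0.06 and -0.25 in E15 control TBT. The E12 and E13 control arrays lay between -0.03 and 0.16, and the pooled SD within groups was 0.07. The highest immobilised femur and the lower control femur were all but level, and the TBT groups overlapped.

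**Figure D2:**
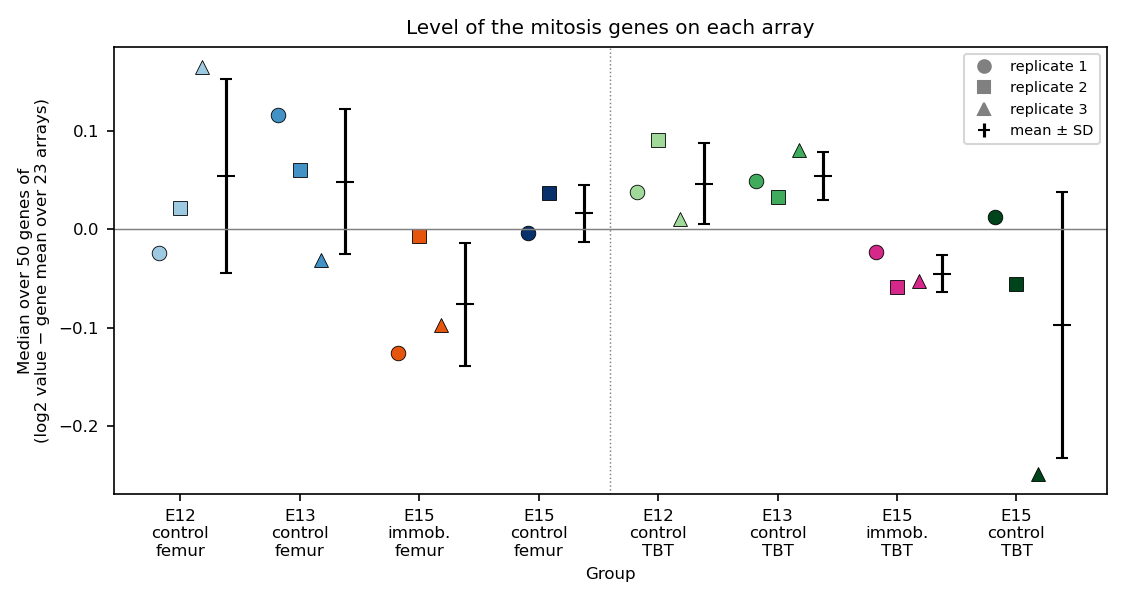
Median over the 50 genes of the deviation from each gene's mean (vertical axis, log2 units) for each array, by group (horizontal axis), with the group mean and SD beside the points. E15 control TBT replicate 3, at -0.25, is the lowest array, and E12 control femur replicate 3, at 0.16, is the highest.

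In control TBT most of the mitosis genes had a lower group mean at E15 than at E12 and E13. The E15 arrays were not all lower. Replicate 1 had a level of 0.01, with 22 of the 50 genes below their own mean, within the 0.01 to 0.09 of the younger TBT. Replicates 2 and 3 were below that range, at -0.06 and -0.25. The genes varied together, so the counts below are not counts of independent results. Of the 50, 44 lay below 0 (88%, against 51% of all 11528 genes), with a median log2 difference of -0.15 against -0.005 for all genes, and 6 of the 45 tested fell at an adjusted p under 0.05 in limma (13.3%, against a background of 5.72% of the 11004 probe sets tested), while none rose (background 3.74%, and 9.46% in both directions). At an unadjusted p under 0.05, 16 of the 45 were lower, against 14% of the probe sets lower and 24.9% in either direction. The 6 were the condensin subunit NCAPD2, topoisomerase TOP2A, the checkpoint kinase TTK, the spindle proteins TPX2 and KIF15 and the centromere protein CENPC. In a fit to the compared groups only, none of them was called. The cartilage was measured in bulk, so fewer dividing cells and less RNA per dividing cell cannot be told apart. Without E15 control TBT replicate 3 none of the 6 kept its call, 40 of the 50 genes lay below 0 and the median was -0.09, and the probe sets called over the whole array were also fewer (1.74% lower and 1.2% higher). Without E15 control TBT replicate 1 there were 12 calls and a median of -0.20, and among the other arrays left out in turn the count was lowest, at 1, without E12 control TBT replicate 1. The share of all probe sets called in these last fits is not given here. Within array codes the median was -0.21 among the 4 arrays of code 07, which include replicate 3, and -0.11 among the 4 of code 09.

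By role the counts were as follows, beside the 51% of all genes that lay below 0 and the 5.72% of probe sets called lower, and roles were not tested against each other. All 9 genes of condensin and chromosome structure lay below 0 in TBT (median -0.21, 2 called), as did all 6 spindle motors and microtubule proteins (median -0.16, 2 called) and all 5 cytokinesis genes (median -0.16, none called). Of the 11 inner kinetochore genes, 9 lay below 0 with 1 called, and of the 6 checkpoint genes 5 lay below 0 with 1 called. The 4 outer kinetochore genes (median -0.06) and the 5 polo and Aurora kinases (median -0.11) had no call. Without E15 control TBT replicate 3 no gene of any role was called, and the medians were -0.13 for condensin and chromosome structure, -0.09 for the spindle motors, -0.07 for cytokinesis and -0.03 for the inner kinetochore, of whose genes 6 of 11 lay below 0.

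NCAPD2, a subunit of condensin I, gave 8.49, 8.24 and 7.93 in E15 control TBT, and 8.47 to 8.73 with a median of 8.64 in the 6 E12 and E13 control TBT. A pair of the E15 arrays was below every younger array and replicate 1 lay at the edge of their range. It fell by 0.39 ± 0.09 on the log2 scale (SE, limma, adjusted p = 0.0124), a ratio of 0.76. This SE, like those of the other genes, uses 1 spread per gene shared by the 8 groups. The SD of NCAPD2 was 0.28 in E15 control TBT and 0.02 to 0.13 in the other groups. For TOP2A it was 0.32 and 0.03 to 0.09, so the SE may be too small for this group. TOP2A, which untangles replicated chromosomes, gave 9.79, 9.64 and 9.18 in E15 control TBT against 9.78 to 9.88 (median 9.87) in the younger TBT, so that replicate 1 overlapped them, and fell by 0.31 ± 0.09 (adjusted p = 0.0456). Without replicate 3 these differences were -0.25 and -0.14 (adjusted p = 0.124 and 0.347).

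TTK, the kinase that starts checkpoint signalling at unattached kinetochores, gave 8.37, 8.29 and 7.99 in E15 control TBT, all below the 8.44 to 8.67 (median 8.51) of the younger TBT. It fell by 0.31 ± 0.08 (adjusted p = 0.0260). TPX2, a spindle assembly factor that activates Aurora A, gave 9.39, 9.29 and 9.07 against 9.48 to 9.66 (median 9.5) in the younger TBT, and KIF15, a motor that helps keep the spindle bipolar, gave 9.65, 9.62 and 9.35 against 9.73 to 9.93 (median 9.78). Both sets of arrays were apart, and both genes fell by 0.28 (SE 0.08 each, adjusted p = 0.0417 for TPX2 and 0.0274 for KIF15). With replicate 3 left out the differences of TTK, TPX2 and KIF15 were -0.20, -0.19 and -0.18 (adjusted p = 0.231, 0.289 and 0.234).

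CENPC, which ties centromeric nucleosomes to the outer kinetochore, gave 7.43, 7.32 and 7.03 in E15 control TBT against 7.41 to 7.60 (median 7.55) in the younger TBT. Replicate 1 overlapped them, and the gene fell by 0.27 ± 0.08 (adjusted p = 0.0418). CENPH, of the same inner kinetochore network, had the largest difference of the 50 at -0.45 ± 0.16 but missed the threshold (adjusted p = 0.0824), its E15 values being 7.27, 7.02 and 6.58 and the younger ones 7.25 to 7.55. Without replicate 3 CENPH was at -0.26 (adjusted p = 0.460) and CENPC at -0.15 (adjusted p = 0.324). In all, 5 genes (KIF15, MAD2L1, NCAPD3, TPX2 and TTK) had every E15 array below every younger TBT array, or 10% of the 50 against 7.58% of all genes, and none had every E15 array above them (5.32% of all genes).

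In control femur the median of the 50 genes lay near that of all genes. Of the 50, 27 lay below 0 at E15 (54%, against 49.8% of all genes), the median was -0.005 against 0 for all genes, and PLK1 alone was called, lower (2.22% of the 45 tested, against a background of 6.97% lower and 5.26% higher). Within array code 05, with 2 arrays on each side, the median was 0.04. The younger arrays there are both E12, so this value compares E15 with E12 only. All 3 E13 control femora bear code 07, so E13 against E15 and array code cannot be told apart in control femur. The 9 genes of condensin and chromosome structure were divided: NCAPD2, NCAPD3, NCAPH, NCAPH2 and TOP2A lay between -0.40 and -0.23, SMC2 was at -0.03, and SMC4 (0.04), NCAPG2 (0.04) and NCAPG (0.16) lay above 0. None of the 8 that were tested passed the adjusted test with all arrays, and 4 were lower at an unadjusted p under 0.05 (28.2% of all probe sets tested passed this in either direction and 14.9% as lower). In 7 of the 50 genes, those 5 low ones with PLK1 and PRC1, both E15 arrays were below all 6 younger ones (14%, a share near the 11.8% of all genes), and they are named for this after their values were seen. The 11 inner kinetochore genes had a median of 0.02.

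PLK1, the polo kinase that acts in spindle assembly and cytokinesis, gave 8.60 and 8.60 in E15 control femur, against 8.77 to 9.24 (median 8.98) in the 6 E12 and E13 control femora. The groups were apart, and it fell by 0.39 ± 0.09 (limma, adjusted p = 0.0138), a ratio of 0.76. The call was lost when either E15 control femur array was left out, although the difference stayed at -0.39 (adjusted p = 0.109 and 0.121), and in a fit to the compared groups only (adjusted p = 0.134). In TBT the same comparison gave -0.11 ± 0.08 for PLK1, the E15 values of 8.98, 8.81 and 8.74 lying within the younger 8.81 to 9.09 for replicates 1 and 2 and below it for replicate 3, and the test of the difference between femur and TBT gave -0.29 ± 0.13 (adjusted p = 0.447).

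NCAPH, a condensin I subunit, gave 8.54 and 8.81 in E15 control femur against 8.85 to 9.30 (median 9.07) in the younger femora, a difference of -0.40 ± 0.13 (adjusted p = 0.0514). PRC1, which bundles midzone microtubules, gave 8.19 and 8.32 against 8.45 to 8.92 (median 8.59), a difference of -0.37 ± 0.13 (adjusted p = 0.0656). Both were apart from the younger arrays and just missed the threshold. CENPU, a subunit of the inner kinetochore, lay the other way, with 7.52 and 7.40 against 7.0 to 7.40 (median 7.16), a difference of 0.31 ± 0.11 (adjusted p = 0.0830). E15 control TBT replicate 3 is an array of no group in this comparison and enters through the shared estimate of spread. Without it, 6 of the 45 genes tested in femur were called, 5 lower and CENPU higher. In that fit 7.58% of all probe sets were called lower and 5.73% higher, so the members were not set apart by this count. Among the 8 tested genes of condensin and chromosome structure 4 were called lower in it (50%), and roles were not tested against each other.

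A few genes were low on most E15 arrays of both treatments. They were singled out after their values were seen, and they are 4 of the 50 (8.0%, against 3.5% of all genes) with 8 or more of the 11 E15 arrays, immobilised ones included, below the lowest of the 12 E12 and E13 arrays. MAD2L1, the checkpoint protein that binds CDC20, ran from 8.26 to 8.50 (median 8.37) on the E15 arrays and from 8.45 to 8.75 (median 8.60) on the younger ones, with 10 of 11 below all of these. NCAPH and TOP2A each had 9 of 11 there and NCAPD2 had 8. Against the younger arrays of their own element, NCAPH and TOP2A had 5 of 5 E15 femora and 5 of 6 E15 TBT below the lowest, MAD2L1 had 4 of 5 and 6 of 6, and NCAPD2 had 5 of 5 and 3 of 6. NCAPD3, a condensin II subunit, had 6 of 11 E15 arrays below the lowest of the 12 younger ones, and all 11 below those of their own element. Femora gave 7.24, 7.27 and 7.21 when immobilised and 7.20 and 7.24 in controls, against 7.30 to 7.68 in younger femora. TBT gave 7.30, 7.32 and 7.38 when immobilised and 7.35, 7.33 and 7.11 in controls, against 7.40 to 7.52 in younger TBT. The share of all genes with such counts within an element is not given here, so these counts show nothing particular to the genes named. For NCAPH the E15 arrays ran from 8.45 to 8.96 (median 8.67) against 8.85 to 9.30 (median 9.10).

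The difference between the elements in the change with age was itself tested. Its median over the 50 genes was 0.13 (femur minus TBT), 38 genes lying above 0, against 0.01 for all genes, but no gene was called (background 0% of 11004). At an unadjusted p under 0.05, 4 of the 45 tested members were higher and 1 lower. Of all probe sets 10.5% passed this in either direction and 5.16% as lower. The median was 0.03 without E15 control TBT replicate 3. The largest differences were in CENPH (0.44), NCAPG2 (0.40) and CENPC (0.39 ± 0.12, adjusted p = 0.307). Between E13 and E12, over both elements, the members had a median of 0 with no call in any direction (background 0%), 24 members lying above 0 and 24 below (52.4% of all genes below). At an unadjusted p under 0.05, 2 members were higher and none lower, CENPQ at 0.20 and NCAPD3 at 0.12 (background 7.47%), and in no member were the E13 and E12 arrays apart (0.191% of all genes lower and 0.0781% higher). In E12 and E13 controls, femur minus TBT had a median of -0.005 and no member called (background 0.0545%, 0.0273% in each direction), nor any at an unadjusted p under 0.05 (background 7.63%), and the range was -0.16 to 0.12.

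**Figure D3:**
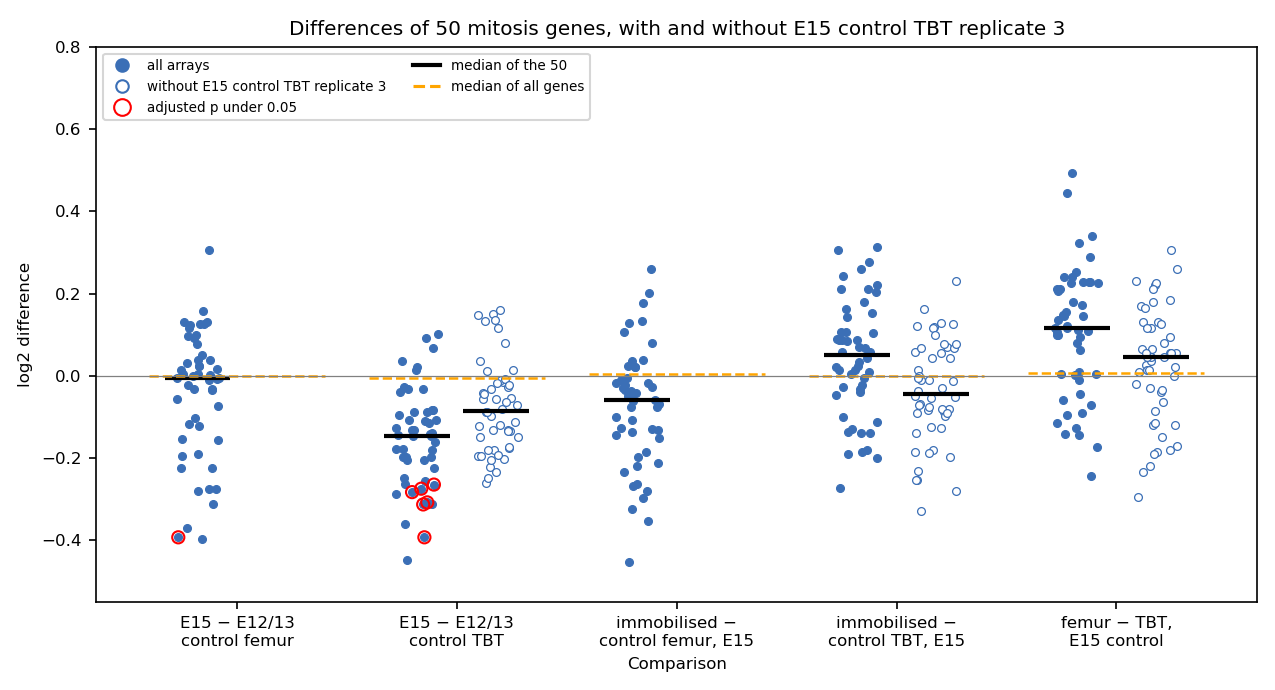
Log2 differences (vertical axis) of the 50 genes in 5 comparisons (horizontal axis), with filled points for the fit to all arrays, open points for the fit without E15 control TBT replicate 3 where the comparison uses it, black bars for the median of the 50, dashed lines for the median of all genes and red rings for genes with an adjusted p under 0.05. In TBT the stage median is -0.15 with that array and -0.09 without it, and the immobilisation median is 0.05 with it and -0.04 without it.

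In immobilised femora most of the genes lay slightly below the controls, and no member passed the test. Of the 50, 38 lay below 0 (76%, against 48.8% of all genes), the median was -0.06 against 0.005 for all genes, and no member was called (background 4.39%, 2.5% lower and 1.89% higher). At an unadjusted p under 0.05, 8 of the 45 were lower against 9.52% of all probe sets tested, and none was higher (19% of all probe sets in either direction). In 12 genes (24%, against 15.3% of all genes) every immobilised femur array was below both controls: ANLN, BUB3, CDK1, CENPL, CENPN, CENPO, CENPU, ECT2, KIF18A, KIF23, NCAPG and NDC80, named for this pattern after their values were seen. In NCAPH2, PLK1 and PRC1 every immobilised array was above both (6%, against 17.2%). The 5 arrays bear the same array code. Leaving out single arrays moved the median between -0.11 (without E15 immobilised femur replicate 2) and -0.02 (without E15 control femur replicate 2).

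CDK1, the kinase at the head of the mitotic programme, gave 9.19, 9.07 and 9.31 in immobilised E15 femora against 9.52 and 9.51 in E15 control femora. All immobilised arrays were below both controls and below all younger femora, whose lowest value was 9.35. The difference was -0.33 ± 0.09, a ratio of 0.80, at an adjusted p of 0.0539 in limma. It was under 0.05 in 3 of the 23 fits that left out 1 array, those without E12 control femur replicates 1 and 3 and without E15 immobilised femur replicate 3 (0.0396, 0.0421 and 0.0351), and at most 0.246 in the others. In TBT, CDK1 gave 9.42, 9.25 and 9.30 in immobilised E15 cartilage against 9.62, 9.49 and 9.43 in E15 controls, again without overlap, a difference of -0.19 ± 0.08 (adjusted p = 0.216). Immobilised TBT values were also below all 6 younger TBT arrays, the lowest of which was 9.56. E15 control femora lay within the younger range and 1 of 3 E15 control TBT did, and the stage differences of CDK1 were -0.03 in femur and -0.08 in TBT. The test of the difference between the elements in the response of CDK1 gave -0.14 ± 0.12 (adjusted p = 0.822).

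CENPN, which binds centromeric nucleosomes, gave 7.75, 7.85 and 7.49 in immobilised femora against 7.97 and 8.33 in controls, a difference of -0.45 ± 0.16 (adjusted p = 0.129). CENPU gave 7.07, 7.09 and 7.16 against 7.52 and 7.40, a difference of -0.35 ± 0.13 (adjusted p = 0.127). Immobilised arrays were the lower in both genes, and immobilised CENPU values were within the 7.0 to 7.40 of the E12 and E13 femora. PLK1 went the other way without passing the test, with 8.67, 8.79 and 8.74 against 8.60 and 8.60 (0.13 ± 0.11, adjusted p = 0.539). The same control arrays stand on the other side of the femur comparison by age.

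In TBT immobilisation gave a median of 0.05 over the 50 genes, 33 above 0 and 17 below (49.3% of all genes below), against a median of 0 for all genes, and no member was called (background 5.74%, 2.88% higher and 2.86% lower). At an unadjusted p under 0.05, 4 members were higher and 1, CDK1, was lower (19.1% of all probe sets in either direction and 8.97% lower). Without E15 control TBT replicate 1, 2 members were called, and the share of all probe sets called in that fit is not given here. The median was -0.04 without E15 control TBT replicate 3, with 32 genes below 0. Within array codes it was 0.09 among the 3 arrays of code 07, which include that replicate, and -0.02 among the 3 of code 09. CENPC, KIF15, PRC1 and TPX2 were above all controls in every immobilised TBT array (8%, against 11.3% of all genes), and CDK1 and PLK2 were below them (4%, against 9.47%).

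CENPC was 7.55, 7.50 and 7.56 in immobilised E15 TBT against 7.43, 7.32 and 7.03 in E15 control TBT, without overlap, a difference of 0.28 ± 0.09 (adjusted p = 0.0882), and 0.16 without control replicate 3 (adjusted p = 0.414). The immobilised values lay within the range of the E12 and E13 TBT. KIF15 gave 9.78, 9.75 and 9.72 in immobilised TBT against 9.65, 9.62 and 9.35 in controls, and TPX2 9.43, 9.5 and 9.45 in immobilised against 9.39, 9.29 and 9.07 in control TBT. Neither passed the test, at 0.21 each, and without control replicate 3 they were at 0.12 each (adjusted p = 0.646 for KIF15 and 0.703 for TPX2). The E15 control TBT arrays enter both this comparison and that of E15 with younger TBT, so the falls with age and the higher immobilised values of CENPC, KIF15 and TPX2 rest on the same 3 control arrays.

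The difference in response between the elements had a median of -0.135 (femur minus TBT), with 37 genes below 0 and no member called (background 0.182%). At an unadjusted p under 0.05, 6 of the 45 tested members were lower and none higher. Of all probe sets 8.8% passed this in either direction and 4.23% as lower. The median was -0.06 without E15 control TBT replicate 3. PLK2 stood at the top: it gave 8.02, 8.23 and 7.63 in immobilised against 7.76 and 7.64 in control femora, and 7.44, 7.41 and 7.61 in immobilised against 7.72, 7.91 and 7.65 in control TBT, so that the arrays overlapped in femur and did not in TBT, and the elements differed by 0.53 ± 0.26 (adjusted p = 0.584). At the other end were CENPH (-0.44), CENPU (-0.41) and ECT2 (-0.38), the last an activator of the GTPase that drives the cleavage furrow.

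**Figure D4:**
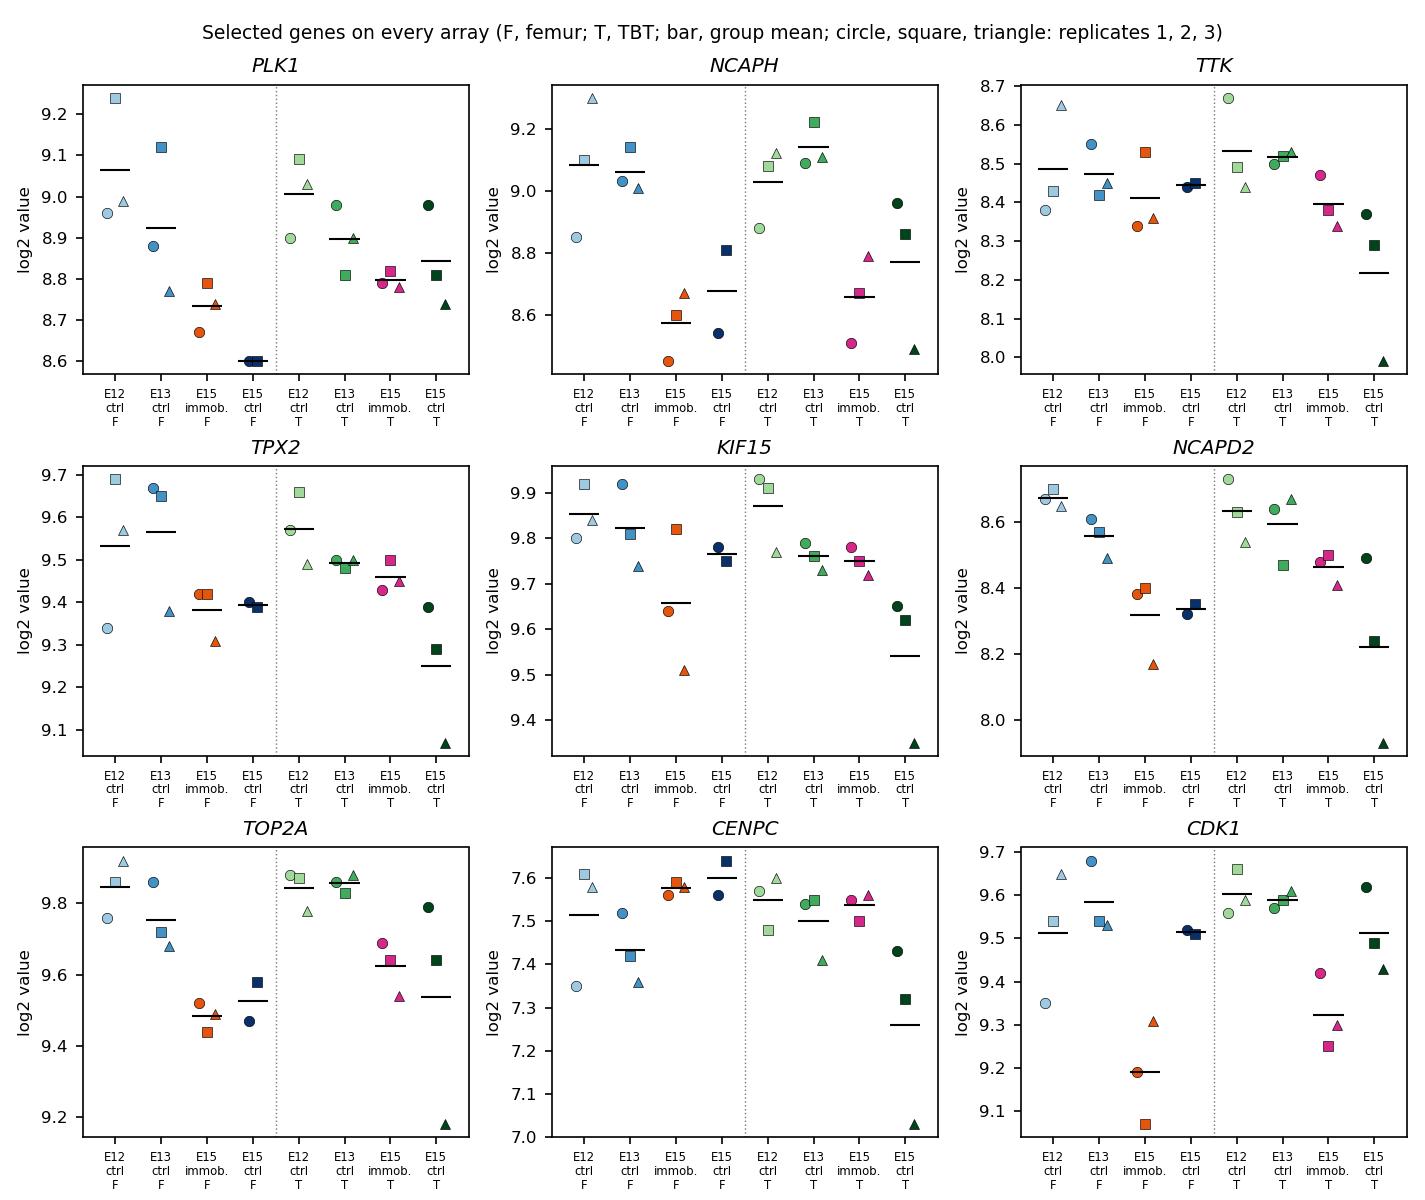
Log2 values (vertical axes, scaled per gene) of 9 genes on every array, by group (horizontal axes; F, femur; T, TBT; ctrl, control; immob., immobilised), with bars at group means and a symbol for each replicate number. PLK1 is at 8.60 on both E15 control femur arrays, CDK1 is low in both immobilised groups, and E15 control TBT replicate 3 is the lowest TBT array in NCAPD2, TOP2A, TTK, TPX2, KIF15 and CENPC.

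Femur minus TBT in E15 controls had a median of 0.115, 38 genes lying above 0 and 12 below (48.4% of all genes below), against 0.01 for all genes, and 0.045 without TBT replicate 3. Both E15 control femur arrays bear array code 05, and the E15 control TBT arrays bear codes 07 and 09. Element and array code therefore cannot be told apart within these arrays. No member was called (background 0.209%, of which 0.0818% higher). At an unadjusted p under 0.05, 7 members were higher and 1 lower (14.9% of all probe sets in either direction and 7.31% lower). In 11 genes both femur arrays were above all TBT arrays (22%, against 15.3% of all genes) and in NCAPH2 and PLK1 both were below (4%, against 14.2%). CENPC gave 7.56 and 7.64 in femur against 7.43, 7.32 and 7.03 in TBT, a difference of 0.34 ± 0.10 (adjusted p = 0.142). CENPH (0.49), NCAPG2 (0.45) and PLK1 (-0.24) marked the ends of the range, with adjusted p between 0.269 and 0.295.

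The neighbouring parts of the cell cycle were described with lists of other genes. With age in TBT, 31 of 36 further mitotic genes lay below 0 (51% of all genes did), with a median of -0.22, and 5 of the 30 tested fell (16.7%, against 5.72% of all probe sets). They were led by WEE1, which restrains CDK1 (-0.48 ± 0.08, limma adjusted p = 0.000865), CKAP2 (-0.39) and INCENP (-0.30). With E15 control TBT replicate 3 left out, 29 lay below 0 with a median of -0.11, and WEE1 alone was called (-0.46, adjusted p = 0.00935), 3.33% against 1.74% of all probe sets. In femur 23 lay below 0 and 3 of 30 fell (10%, against 6.97%), INCENP (-0.37), MAD2L2 (-0.36) and TRIP13 (-0.35). MKI67, the proliferation marker, had differences of 0.02 in femur and -0.18 in TBT, neither past the test.

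Of 18 replication genes, all lay below 0 in TBT (median -0.24) and 5 of the 17 tested fell (29.4%, against 5.72%), led by MCM3 (-0.52) of the replicative helicase and the ribonucleotide reductase subunits RRM1 (-0.39) and RRM2 (-0.37). All 18 still lay below 0 without E15 control TBT replicate 3 (median -0.18) and none was called, MCM3 being at -0.38 (adjusted p = 0.0918). In femur 15 lay below 0 and MCM5, MCM10 and RRM1 fell (17.6%, against 6.97%). With immobilisation in femur 2 of 30 further mitotic genes fell (6.67%, against 2.5% of all probe sets), NEK2 (-0.57 ± 0.15, adjusted p = 0.0430) and PBK (-0.36 ± 0.10, adjusted p = 0.0495), with 19 of 36 below 0, and PBK was not called in the fit without E15 control TBT replicate 3 (adjusted p = 0.0513). None was called in TBT.

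Of 20 transcriptional regulators of these genes, 13 lay below 0 with age in femur (median -0.11, 49.8% of all genes below). In TBT 17 did (median -0.15, 51% of all genes below), also without E15 control TBT replicate 3 (median -0.08). MYBL1 rose in both elements, by 0.72 in femur and 0.69 in TBT. In TBT it was the sole call among 18 tested (5.56%, against 3.74% higher), at 0.64 without E15 control TBT replicate 3 (limma, adjusted p = 0.00798). E2F3 rose in femur (0.72), and MYBL2 (-0.33) fell there with 1 further gene, so that 2 of 18 tested were called in each direction (11.1%, against 5.26% higher and 6.97% lower). FOXM1, a main activator of mitotic genes, had differences of -0.23 in each element that did not pass the test (adjusted p = 0.232 in femur and 0.179 in TBT). Of 10 cell cycle inhibitors with 8 tested, CDKN2C (0.71) and BTG2 (0.69) rose in femur (25%, against 5.26%), and CDKN1B (0.53), BTG2 (0.46) and TOB1 (0.30) rose in TBT (37.5%, against 3.74%). In TBT CCND1, the cyclin of early cell cycle entry, fell (-0.29), the sole call among 5 genes of D and E cyclins and their kinases with 3 tested (33.3%, against 5.72%). Of the anaphase promoting complex, which CDC20 activates, 9 genes were tested: ANAPC16 fell in femur (-0.57, 11.1% against 6.97%), and ANAPC5 (-0.34) and ANAPC1 (-0.22) fell in TBT (22.2%, against 5.72%). None of the TBT calls of the inhibitors, CCND1 and the anaphase promoting complex held without E15 control TBT replicate 3, with adjusted p between 0.0812 for ANAPC5 and 0.175 for CDKN1B. Among 10 cohesin genes none was called in either element. No gene of the regulator, inhibitor, cyclin, anaphase promoting complex, cohesin and replication lists was called with immobilisation in limma.

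Markers of other cell types also differed with age. The counts called below stand beside 5.26% of all probe sets rising and 6.97% falling in femur, and 3.74% and 5.72% in TBT. All 8 skeletal muscle markers lay below 0 in femur (median -0.59) and TBT (median -0.52), none of 7 tested being called. They averaged 6.35 to 6.77 in E15 against 6.98 to 7.51 in younger femur, and 6.07 to 7.13 against 6.97 to 7.54 in TBT. The 9 cartilage markers averaged 12.10 to 12.11 in E15 against 11.81 to 12.09 in younger femur, with 2 falling and 1 rising. In TBT they averaged 12.04 to 12.25 against 11.68 to 11.98, with 2 rising. Of 5 leukocyte and osteoclast markers 4 rose in each element (80%, against 5.26% of all probe sets in femur and 3.74% in TBT), also without E15 control TBT replicate 3, their mean level being 7.66 to 7.96 in E15 and 6.71 to 7.14 in younger TBT, and 7.40 to 7.55 in E15 and 6.53 to 7.09 in younger femur. The 6 hypertrophic markers averaged 9.81 to 10.35 in E15 against 9.34 to 9.82 in younger TBT, with 1 rising and none without that array, and 9.995 to 10.06 in E15 against 8.98 to 9.65 in younger femur, with 3 rising and 1 falling. Of 5 endothelial markers tested, 2 rose in femur and 1 in TBT. Of 4 erythroid markers 3 rose in each element and 1 fell, the fall in TBT being lost without that array. The 5 fibrous tissue markers averaged 11.60 to 11.70 in E15 against 11.16 to 11.45 in younger femur, without overlap, and 11.21 to 11.70 in E15 against 11.15 to 11.50 in younger TBT, with 1 rising in each element.

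With immobilisation, 8 skeletal muscle markers averaged 4.0 to 5.06 in immobilised against 6.35 to 6.77 in control femora, 6 of 7 tested falling, and 4.19 to 4.97 in immobilised against 6.07 to 7.13 in control TBT, 7 of 7 tested falling. Of all probe sets 2.5% fell and 1.89% rose in femur, and 2.86% fell and 2.88% rose in TBT. Hypertrophic markers averaged 9.33 to 9.75 in immobilised against 9.81 to 10.35 in control TBT and erythroid markers 7.33 to 7.44 in immobilised against 7.70 to 7.93 in control TBT, both without overlap, with 1 marker of each list falling (2.86% of all probe sets did) and neither called without E15 control TBT replicate 3. In femur the hypertrophic means were 9.93 to 10.16 in immobilised against 9.995 to 10.06 in control cartilage, and the erythroid means 7.68 to 8.16 in immobilised against 7.35 to 7.69 in controls, both with overlap, 1 erythroid marker rising. Fibrous markers averaged 11.71 to 11.94 in immobilised against 11.60 to 11.70 in control femora. The nearest arrays of these groups were all but level, at 11.708 and 11.704. In TBT they averaged 11.43 to 11.47 in immobilised against 11.21 to 11.70 in control cartilage. In each element 1 of the 5 markers rose and 1 fell, and 2 lay below 0. The part of these cell types in the differences of the mitosis genes was not tested.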

How the data were processed

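Affymetrix chicken arrays were hybridised with labelled cDNA from total RNA of 23 samples in 8 groups, and the deposited values are log2 intensities that the authors background-corrected, quantile-normalised and summarised per probe set with RMA (affy is named in the submitters' processing notes, aroma.affymetrix in the methods, versions not given in the sources used here). The authors processed 24 arrays and excluded 1 after principal component analysis. Of 20804 probe sets, 12300 carried 1 gene symbol in the platform annotation, 256 several and 8248 none, and 11528 genes were kept with the probe set of highest mean, 4 of the 50 members having several. Following the methods, 11004 probe sets with a linear standard deviation above 10 were tested.

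Group means were fitted with limma 3.58.1 in R 4.3.3 over all 23 arrays (15 residual degrees of freedom), in place of the SAM permutation test of the methods, with Benjamini-Hochberg adjustment over the 11004 probe sets and a threshold of 0.05. Stage was E15 minus the mean of E12 and E13 controls. The fit was run on simulated arrays with independent noise per probe set and the same spread in every group. The members varied together and their spread differed between groups, so that run does not bear on their calls. Members were to be named if called in any comparison, if among the 3 highest or 3 lowest of each, or if in a fixed set of mitotic genes. Not all of these are given here, and BUB1, NUF2 and PLK4 of the fixed set are left out. Up to 3 genes of each further list with the lowest p in a comparison were also named, with FOXM1, MYBL2 and MKI67. Members named for other patterns are said to be so. The members and lists were chosen with earlier results of these data known. Alternatives were no filter, another quantile normalisation, array code or replicate number as a block, fits to the compared groups only, the mean over probe sets, and leaving out each array. The number of arrays, 2 or 3 a group, limits the precision. Promoter sequences were not analysed here.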

Additional observations from a re-analysis of the deposited data

How the results depend on the processing

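The counts of members called with age depended on settings. The share of all probe sets called can change too, so a changed count alone shows nothing particular to the members. In TBT this share was 5.72% lower and 3.74% higher with all arrays, and 1.74% and 1.2% without E15 control TBT replicate 3. In femur it was 6.97% and 5.26% with all arrays, and 7.58% and 5.73% without that array. For the other settings and arrays left out this share is not given here. In femur, 1 gene was called, against 2 after quantile normalisation, 3 with the array code as a block, 4 with the replicate number as a block, 0 in a fit to the compared groups only and 2 with the mean over probe sets. In TBT, 6 genes were called, against 1 without the spread filter, 3 with the code as a block and 0 with the compared groups only. Same-numbered arrays did not deviate together (correlations of -0.17 to 0.07). Whether femur and TBT arrays of the same number share embryos is not stated, and these correlations cannot settle it with 2 or 3 arrays a group. With the replicate block TBT kept a count of 5, and outside the comparisons with age in femur and TBT there was no call. The medians with age in TBT, with immobilisation and between elements at E15 kept their direction in these settings, and that with age in femur, at -0.005, was 0.015 with the code block.

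Leaving out 1 array at a time, calls ran from 0 to 6 in femur and from 0 to 12 in TBT with age (in femur 0 when either E15 control femur array was dropped, 3 when E13 control femur replicate 3 or the first E15 control TBT array was, and 6 when the third was, and in TBT 0 and 12 when the third and the first of these were, 1 when E12 control TBT replicate 1 and 2 when E13 control TBT replicate 1 was, and 3 when replicate 2 of E12, E13 or E15 control TBT, replicate 1 or 3 of E15 immobilised TBT or either E15 control femur array was), from 0 to 1 with immobilisation in femur and from 0 to 2 in TBT. The medians ran from -0.038 to 0.020 and from -0.20 to -0.085 with age in femur and TBT, from -0.105 to -0.015 and from -0.044 to 0.096 with immobilisation, from 0.032 to 0.17 and from -0.20 to -0.058 for the differences between elements, from 0.045 to 0.175 in E15 controls, from -0.040 to 0.020 in younger controls and from -0.030 to 0.024 between E13 and E12. Of single genes, CDC20 in TBT with age was 0.07, and -0.05 without E15 control TBT replicate 1 to 0.14 without replicate 2, and AURKB in E15 femur against TBT was -0.14, and 0.025 with the code block. With 2 or 3 arrays a group, members had a median SE of 0.08 to 0.16, so that differences of that size were not detectable.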

Other observations

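Of the members, 4 have several probe sets. NCAPH has 4, of which 2 hold identical values on all 23 arrays, and the other 2 had correlations of 0.68 and 0.77 with the one used, over 23 arrays that share normalisation. The second probe set of CENPI averaged 5.27, below the array medians, and had a correlation of -0.27 with the first, while those of CENPF and PRC1 had 0.39 and 0.62. E12 control femur replicate 3 had the highest level of the mitosis genes (0.16, with 6 of 50 below their own mean), against -0.02 and 0.02 on the other E12 control femur arrays.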
